A study of Mus musculus with 18 samples.

Results

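CD8+ conventional type 1 dendritic cells (cDC1) were sorted from the spleens of ADAM10-deficient (KO) and wild-type (WT) C57BL/6 mice, and their transcripts were counted by RNA sequencing. The libraries were taken by their labelled genotype and population, which gave 3 KO and 3 WT CD8+ libraries, 6 of the 18 in the series. The other 12 libraries were KO and WT CD4+ cDC2 and KO and WT CD4-CD8- cDC2, with 3 in each group. They share 1 estimate of the spread with the CD8+ libraries and show whether the KO effect in CD8+ cells differed from that in cDC2. All groups came from digested spleens enriched for CD11c and sorted as living cells with CD11c and MHC class II. The labels give no age, and they do not name the promoter or cell type in which ADAM10 was removed. They number the libraries of each group 1 to 3 without saying that these came from separate mice, so a p-value here reflects only how the libraries of a group vary, and that variation may be technical.

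ADAM10 is a membrane metalloprotease that trims the outer part of many surface proteins. Its best known role is the cut that follows ligand binding to a Notch receptor, after which gamma-secretase frees the intracellular part of Notch to join RBPJ at target genes such as Hes1 and Dtx1. In the spleen, Notch2 signalling is known to be needed for the ESAM-high subset of CD4+ cDC2 and to act on CD8+ cDC1 as well. cDC1 depend on the transcription factors BATF3 and IRF8, carry XCR1, CLEC9A and CD8 alpha, and present antigen from dead cells to CD8+ T cells.

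The 3 KO CD8+ libraries held between 15573482 and 16550698 estimated counts, and the 3 WT CD8+ libraries between 12858622 and 14124471. The sorted populations carried their defining genes: Xcr1 averaged 1011 ± 54.6 CPM (counts scaled to a common library size) in KO and 746 ± 147 CPM in WT CD8+ cells (SD, n = 3 each), and 3.42 CPM in WT CD4+ cells. Across these 6 libraries the first principal component (39.8% of the variance) separated the genotypes, and the second (18.8%) set KO replicate 3 apart. Ribosomal protein genes took 10.8 to 11.9% of the counts in KO and 9.55 to 9.72% in WT libraries, and the 10 most abundant genes took 13.8 to 14.4% in KO and 12.4 to 12.8% in WT libraries. The share of mitochondrially encoded genes overlapped, at 1.8 to 2.05% in KO and 1.58 to 2.06% in WT libraries.

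Of 24590 gene names, 13369 passed the filter on low counts. A gene was called at a Benjamini-Hochberg adjusted p under 0.05 in edgeR's quasi-likelihood test, and "rose" and "fell" are used only for called genes. In KO CD8+ cells 2109 genes were called (15.8% of those tested), of which 944 rose (7.06%) and 1165 fell (8.71%). These shares are the background for the counts of called members in every gene list below. At a change of at least 2-fold the falls outnumbered the rises, with 184 genes higher (1.38%) and 575 lower (4.3%) in KO, which is 5.68% of the genes in all. In 3952 genes (29.6%) the 3 KO and 3 WT libraries did not overlap, with KO above WT in 1964 (14.7%) and below it in 1988 (14.9%). Without WT replicate 1 the number that rose was 626. On the deposited TPM values, which are scaled by transcript length and library, and where the median gene shifted by -0.125 on the log2 scale, 16.2% of the calls were higher in KO, against 44.8% with counts. The results were recomputed in 17 alternative analyses, 6 of which left out 1 library, and losses of a call are given beside the gene.

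**Figure D1:**
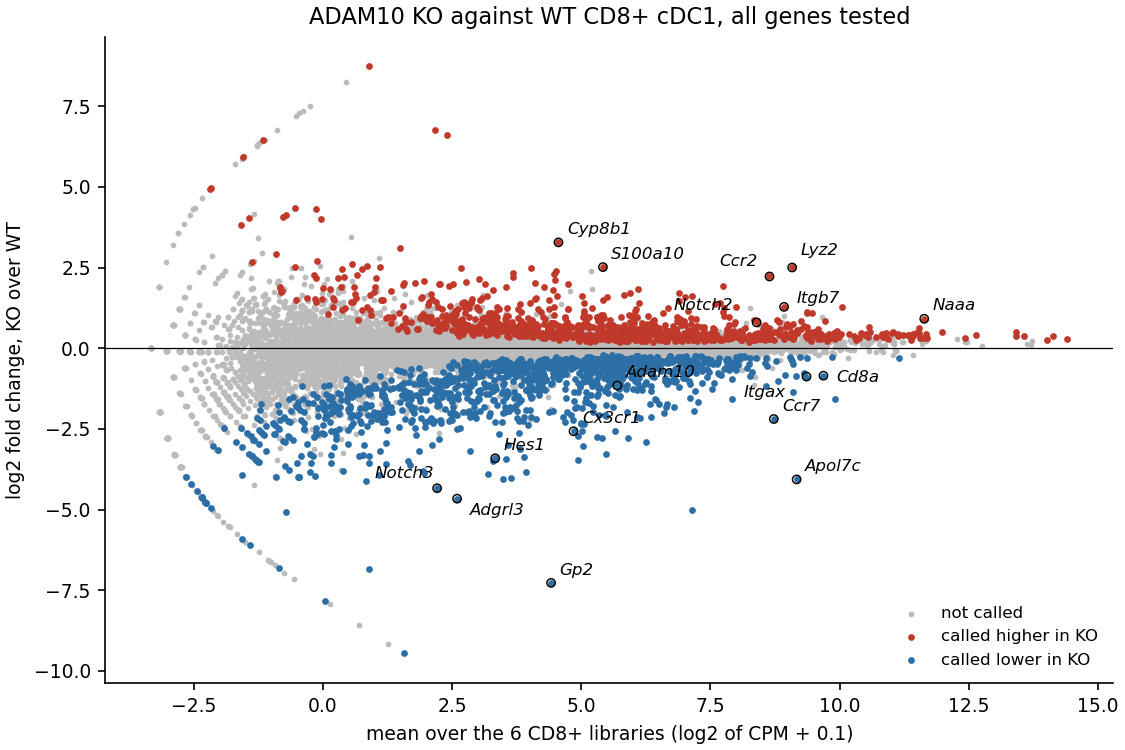
KO against WT CD8+ cells for the 13369 genes tested: mean level on the x axis (log2 CPM) and log2 fold change, KO over WT, on the y axis, with called genes coloured. The largest labelled change is the fall of Gp2 (-7.27), and falls of at least 2-fold (575) outnumber such rises (184); the arcs at low levels are genes at or near 0 in a group, whose fitted fold change depends on the fit's prior count.

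Adam10 itself, on chromosome 9 (chr9:70678997-70780229, plus strand, GRCm38), was lower in KO cells but still present. It had 28.7, 31 and 36.4 CPM in KO libraries, against 57, 58.3 and 99 CPM in WT libraries. The groups did not overlap, although WT replicate 3 lay well above the other WT libraries. The log2 fold change was -1.15 ± 0.23 (SE, adjusted p 0.00186), and it was -1.18 in CD4+ and -1.25 in CD4-CD8- cells. Nearly all of the counts were assigned to the full-length transcript Adam10-201, with 440, 443 and 561 estimated counts in KO and 823.4, 813.3 and 1310 in WT libraries. Since a deletion of some exons can leave the rest of a transcript to be counted, the remaining level does not measure the protein. Among 22 tested genes within 2 Mb of Adam10, 2 rose and 2 fell, near the shares over all genes tested (7.06% rose and 8.71% fell). The larger rise was that of Anxa2, which encodes a membrane-binding annexin and was chosen after its values were seen. Anxa2 had 297, 298 and 304 CPM in KO, against 112, 122 and 105 CPM in WT libraries (log2 fold change 1.41 ± 0.11, adjusted p 3.39e-07).

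The Notch targets Hes1 and Dtx1 and the receptor gene Notch3 fell, while genes for the receptor Notch2 and for RBPJ rose. Hes1, a transcriptional repressor and the textbook Notch target (chr16:30064384-30067796, plus strand), had 1.37, 2.16 and 1.62 CPM in KO, against 19.1, 14.9 and 20.9 CPM in WT libraries. Dtx1, which encodes the E3 ligase Deltex (chr5:120680202-120711927, minus strand), had 0.848, 0.0697 and 0.52 CPM in KO, against 5.37, 7.73 and 7.86 CPM in WT libraries. For both genes every KO library lay below every WT library, as in 14.9% of all genes tested. The log2 fold change was -3.41 ± 0.41 for Hes1 (adjusted p 2.43e-05) and -3.82 ± 0.92 for Dtx1 (adjusted p 0.00827). The Dtx1 call was lost with an offset for transcript length (adjusted p 0.0613), and its log2 fold change was -4.49 without KO replicate 1. Notch3, a receptor gene that is itself known to respond to Notch (chr17:32120820-32166852, minus strand), had 0.261, 0.279 and 0.714 CPM in KO, against 9.3, 5.44 and 11.2 CPM in WT libraries. It fell to near the limit of detection in KO cells (-4.34 ± 0.53 on the log2 scale, adjusted p 2.57e-05), and the value was -4.96 without KO replicate 3.

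Notch2, the receptor gene known for its role in splenic cDC, was higher in every KO library. It had 369, 404 and 510.3 CPM in KO, against 231, 241 and 263 CPM in WT libraries (log2 fold change 0.80 ± 0.11, adjusted p 8.52e-05). Rbpj, the DNA-binding partner of all Notch receptors, had 391, 473 and 508 CPM in KO, against 285, 289 and 282 CPM in WT libraries (0.68 ± 0.13, adjusted p 0.00162). The Rbpj call was not made in any of the 4 analyses that corrected for transcript length or used TPM (lowest adjusted p 0.0797). Jag1, a ligand gene, fell (4.11, 2.23 and 3.51 CPM in KO, against 8.95, 9.16 and 8.01 CPM in WT libraries; -1.40 ± 0.22, adjusted p 0.000294). Poglut1, whose enzyme adds glucose to Notch repeats, had 61.2, 60.2 and 67.1 CPM in KO, against 95.7, 106 and 92.6 CPM in WT libraries. It fell by 0.64 on the log2 scale in CD8+ cells, where the fits for CD4+ and CD4-CD8- cells gave 0.36 and 0.42. Notch4 had 90.5 to 106 CPM in KO, against 74 to 89.1 CPM in WT libraries, and was not called (log2 fold change 0.28 ± 0.19). Notch1 had 11.9, 13.3 and 15.3 CPM in KO, against 13.8, 11.8 and 14.9 CPM in WT libraries, and was not called on counts (adjusted p 1). On TPM its log2 fold change was 2.48 (adjusted p 0.0288), and on counts with the transcript length offset it was 3.14. The Notch1 value therefore depends on whether transcript length enters.

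Of the 14 Notch targets listed, 11 passed the filter: 1 rose, 3 fell and 7 were not called, with a median log2 fold change of -0.14, against 0.00 over all genes tested. The rise was that of Myc, the growth-promoting transcription factor, which had 33, 32.1 and 36.4 CPM in KO, against 14.5, 20.1 and 18.4 CPM in WT libraries (0.94 ± 0.12, adjusted p 3.9e-05). The third fall was that of the ligand gene Dll4 (1.56, 0.697 and 1.04 CPM in KO, against 2.75, 2.58 and 2.49 CPM in WT libraries; adjusted p 0.0472). Leaving out any library but KO replicate 1 ended the Dll4 call, with an adjusted p of up to 0.172 without KO replicate 2, and it was not called with either replicate block, in the CD8+ libraries alone or with the length offset (adjusted p 0.0574 to 0.0965). Nrarp, another direct target, had at most 0.627 CPM in KO and 0.859 CPM in WT libraries and was not called. Of 26 tested Notch receptors, ligands and modifiers 2 rose (7.69%, near the 7.06% of all genes) and 6 fell (23.1%, against 8.71%), with a median of -0.12. Of 7 gamma-secretase subunits 1 rose and 0 fell (median 0.03).

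**Figure D2:**
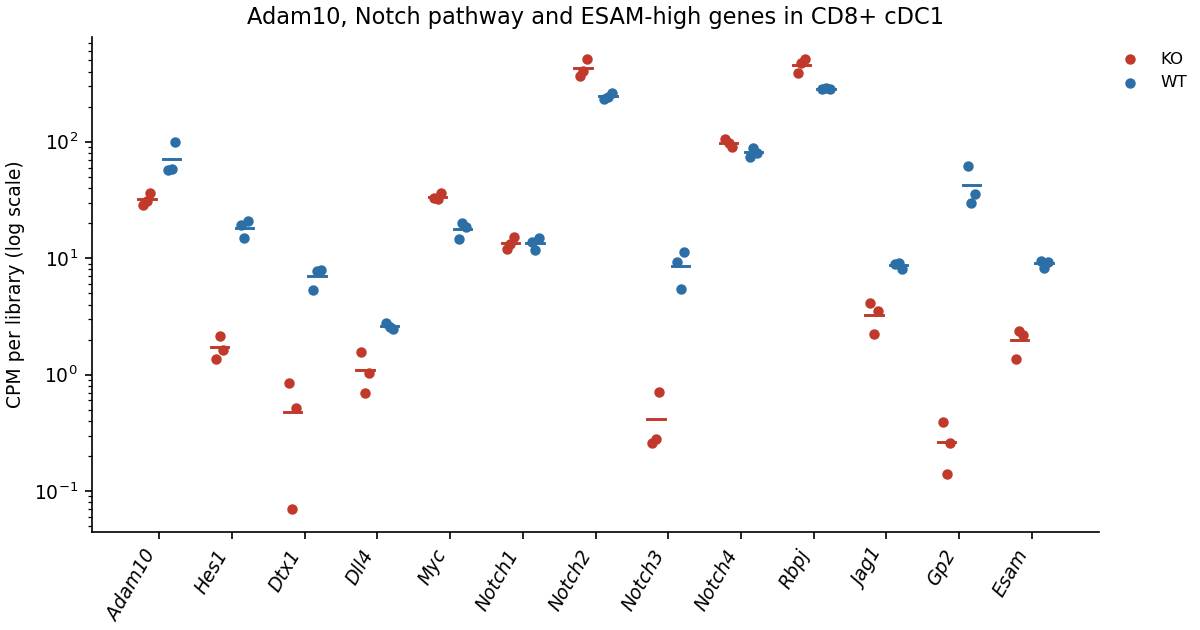
CPM (log scale) of Adam10, Notch pathway and ESAM-high genes in each CD8+ library, KO left of WT, with a bar at the group mean. Hes1, Dtx1 and Notch3 sit lower in all 3 KO libraries than in any WT library, whereas Notch2 and Rbpj sit higher.

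The sequences just before the start sites of 3 genes that fell and of 1 that rose are given here to show how promoters of responding genes differ in the letters TGGGAA, the core of the RBPJ motif, which is written in capitals. Each is the 250 bases before the RefSeq start on the minus strand, 5′ to 3′, from RefSeq's table for GRCm38.p6.
Gp2, chr7:119459273-119459522: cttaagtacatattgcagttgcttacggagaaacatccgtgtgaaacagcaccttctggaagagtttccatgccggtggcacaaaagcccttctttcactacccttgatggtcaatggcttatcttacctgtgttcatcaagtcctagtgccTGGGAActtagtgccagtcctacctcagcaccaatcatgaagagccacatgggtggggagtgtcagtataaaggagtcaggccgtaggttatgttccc
Notch3, chr17:32166891-32167140: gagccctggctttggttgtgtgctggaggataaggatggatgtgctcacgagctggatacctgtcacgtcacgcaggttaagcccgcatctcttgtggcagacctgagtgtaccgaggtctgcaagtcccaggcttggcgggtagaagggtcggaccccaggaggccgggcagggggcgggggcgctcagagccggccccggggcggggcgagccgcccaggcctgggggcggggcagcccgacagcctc
Dtx1, chr5:120711670-120711919: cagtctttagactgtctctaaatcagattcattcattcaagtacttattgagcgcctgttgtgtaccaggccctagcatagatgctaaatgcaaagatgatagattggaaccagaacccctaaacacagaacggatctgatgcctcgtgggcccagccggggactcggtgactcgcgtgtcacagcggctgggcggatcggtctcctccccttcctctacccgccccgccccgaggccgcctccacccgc
Lyz2, chr10:117282273-117282522: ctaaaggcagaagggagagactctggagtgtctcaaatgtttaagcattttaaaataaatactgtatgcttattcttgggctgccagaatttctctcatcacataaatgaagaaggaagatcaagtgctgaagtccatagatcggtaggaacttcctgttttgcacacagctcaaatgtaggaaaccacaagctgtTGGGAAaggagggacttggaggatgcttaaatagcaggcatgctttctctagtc
The Gp2 window holds the motif with its first base 98 bases before the start, and the Lyz2 window 54 bases before it, both on the gene's own strand. Neither strand of the Notch3 and Dtx1 windows holds these letters. Searched on both strands from 250 bases before to 50 after the start, TGGGAA occurs in 7651 of 27025 promoters of the table (28.3%). It occurs in 3 of 13 of the genes with the largest falls that have an entry (Gp2, Stra6l and Cd209e). A match is a description of the letters only. Hes1 has no entry.

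The 15 largest falls among genes that reached 5 CPM and did not overlap between genotypes were led by Gp2, whose GPI-anchored product binds bacterial pili on other cell types (chr7:119442537-119459285, minus strand). Gp2 had 0.391, 0.139 and 0.26 CPM in KO, against 61.8, 29.6 and 35.4 CPM in WT libraries. It was near 0 in each KO library, and the log2 fold change was -7.27 ± 0.53 (adjusted p 3.44e-07). Adgrl3, an adhesion G protein-coupled receptor, had 0.326, 0.697 and 0.325 CPM in KO, against 11.3, 9.16 and 13.9 CPM in WT libraries (-4.66 ± 0.32, adjusted p 6.7e-08). Apol7c (chr15:77524852-77533316), of the apolipoprotein L family, had 56.7, 72.5 and 65.5 CPM in KO, against 1032, 1175 and 1050 CPM in WT libraries. Its log2 fold change was -4.06 ± 0.23 (adjusted p 1.13e-08), so the gene stayed well detected in KO cells. The near-identical copy Gm8221, named after its values were seen, had 5.28, 10.8 and 9.16 CPM in KO, against 249, 267 and 301 CPM in WT libraries (-5.02 ± 0.30, adjusted p 2.03e-08). How shared reads were divided between Apol7c and Gm8221 is uncertain.

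Among the other large falls, Gpm6b, a tetraspan membrane protein gene, had 0.714 to 1.76 CPM in KO, against 14.9 to 29.5 CPM in WT libraries (log2 fold change -4.04 ± 0.29). Stra6l, a receptor for retinol-binding protein, had 1.24 to 1.69 CPM in KO, against 19 to 30.7 CPM in WT libraries (-4.02 ± 0.29). The enzyme gene Cyp7b1, which makes the oxysterol ligand of the chemoattractant receptor GPR183, had 0.26 to 0.913 CPM in KO, against 4.58 to 8.69 CPM in WT libraries (-3.85 ± 0.70). Cd33, a sialic acid-binding lectin of myeloid cells, had 1.25 to 3.38 CPM in KO, against 15.4 to 35.7 CPM in WT libraries (-3.83 ± 0.42). Hic1, a transcriptional repressor, had 0.587 to 2.72 CPM in KO, against 12 to 26.6 CPM in WT libraries (-3.49 ± 0.62). Spint1, a serine protease inhibitor, had 2.79 to 7.43 CPM in KO, against 52.1 to 61 CPM in WT libraries (-3.45 ± 0.45). Apol10b, Cd209e and Ace completed the set, with log2 fold changes of -3.44 ± 0.32, -3.37 ± 0.39 and -3.62 ± 0.67. The size of several falls depended on a single KO library, and the fall was larger without it. The log2 fold change was -4.69 for Cyp7b1 without KO replicate 1 and -4.09 for Hic1 without KO replicate 2. Without KO replicate 3 it was -4.46 for Cd33, -4.02 for Cd209e and -5.05 for Ace. Each of these genes stayed called without any 1 library in turn. Ace, which encodes angiotensin-converting enzyme, was not called on TPM with a pseudocount of 1 (adjusted p 0.119) or on rescaled TPM (adjusted p 0.151).

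The 15 largest rises, chosen in the same way, reached at most 3.28 on the log2 scale. Cyp8b1, a sterol hydroxylase of bile acid synthesis in the liver, had 39.2, 41.8 and 46.8 CPM in KO, against 3.99, 6.3 and 2.8 CPM in WT libraries (log2 fold change 3.28 ± 0.32, adjusted p 5.73e-06). Lyz2, the lysozyme of macrophages and monocytes, had 827, 1021 and 915 CPM in KO, against 165, 148 and 174 CPM in WT libraries (2.50 ± 0.14, adjusted p 1.13e-08). Ccr2, the receptor for the chemokine CCL2, had 615, 671 and 689 CPM in KO, against 144, 130.4 and 148 CPM in WT libraries (2.23 ± 0.11, adjusted p 3.42e-09). S100a10, the partner of annexin A2, had 64.9, 81.8 and 71.5 CPM in KO, against 14.7, 12.8 and 10.6 CPM in WT libraries (2.52 ± 0.20, adjusted p 3.39e-07). That the KO and WT libraries of these genes do not overlap was a condition of their choice. Lyz1, the close copy of Lyz2, had 22.4 to 30.8 CPM in KO, against 5.22 to 8.16 CPM in WT libraries, and reads of the pair can be divided wrongly.

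Further rises took in receptors and enzymes. Cd226, an activating receptor known from T and NK cells, had 33.5 to 44.7 CPM in KO, against 4.38 to 9.64 CPM in WT libraries (log2 fold change 2.40 ± 0.33). Cysltr1, a leukotriene receptor, had 26.2 to 43.5 CPM in KO, against 7.09 to 9.37 CPM in WT libraries (2.12 ± 0.21). The peptidase Dpep2 (2.47 ± 0.22), the cytochrome Cyp2s1 (2.48 ± 0.20) and the adhesion adaptor Parvb (2.33 ± 0.27) rose by similar amounts. Qpct, a glutaminyl cyclase, had 51, 24.5 and 34.8 CPM in KO, against 7.02, 6.66 and 8.69 CPM in WT libraries (2.30 ± 0.21). Dhrs9, a dehydrogenase of retinoid metabolism, rose (2.15 ± 0.39), as did the chemokine gene Ccl2 (2.10 ± 0.47). Naalad2 and Timd4 closed the list with 7.95 to 13.6 and 2.8 to 8.25 CPM in KO, against 1.51 to 3.29 and 0.907 to 1.72 CPM in WT libraries. Their calls were lost in 1 analysis each, Naalad2 with the length offset (adjusted p 0.135) and Timd4 with the replicate block in the CD8+ libraries alone (adjusted p 0.051).

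Most genes that define cDC1 were not lower in KO cells. Of 30 cDC1 genes, all tested, 10 rose (33.3%), 1 fell (3.33%) and 19 were not called, with a median log2 fold change of 0.32. Of all genes tested 7.06% rose and 8.71% fell. On TPM 4 cDC1 genes were called higher. In CD4+ cells 13 of the 30 rose and 7 fell (median 0.45), where 18.5% of all genes rose and 16.6% fell. In CD4-CD8- cells 17 rose and 3 fell (median 0.63), where 14.6% of all genes rose and 11.4% fell. Clec9a, the receptor for dead cells, had 487, 499 and 544 CPM in KO, against 424, 461 and 413 CPM in WT libraries and was not called (0.24 ± 0.12, adjusted p 0.228). Irf8 had 3442, 3510 and 3213 CPM in KO, against 2452, 3024 and 2479 CPM in WT libraries and was not called either (0.35 ± 0.14, adjusted p 0.116). Batf3 had 92.4, 83.9 and 57.1 CPM in KO, against 78.6, 76.6 and 66.3 CPM in WT libraries, and the groups overlapped. Cd8a, the gene of the marker used for sorting, was the exception and fell, with 667, 521 and 578 CPM in KO, against 1036, 1139 and 1006 CPM in WT libraries (-0.85 ± 0.13, adjusted p 0.000288). Itgae, which encodes CD103, had 180.4 CPM in KO replicate 1 but 43.2 and 43.1 CPM in the other KO libraries, against 68.9, 107 and 77.7 CPM in WT libraries, and was not called.

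The rises among cDC1 genes were led by Septin3, a cytoskeletal GTPase, with 218, 202 and 160.5 CPM in KO, against 45, 76.9 and 70.6 CPM in WT libraries (log2 fold change 1.59 ± 0.28). Naaa, a lysosomal amidase, had 4719, 4222 and 3552 CPM in KO, against 2042, 2421 and 2170 CPM in WT libraries (0.91 ± 0.15). Tlr3, the sensor of double-stranded RNA, had 408, 396 and 458 CPM in KO, against 218, 263 and 209 CPM in WT libraries (0.87 ± 0.17). Id2, a repressor that favours the cDC1 fate, had 699, 754 and 623 CPM in KO, against 457, 519 and 439.8 CPM in WT libraries (0.55 ± 0.14). The KO libraries lay above all WT libraries in each of these called genes, as in 14.7% of all genes tested. On TPM neither Tlr3 (adjusted p 0.0556) nor Id2 (adjusted p 0.0925) was called. Among 16 genes shared by all cDC, 3 rose and 6 fell (median 0.06). Itgax, which encodes CD11c, fell (378, 491 and 521 CPM in KO, against 801, 808 and 941 CPM in WT libraries; -0.88 ± 0.10, adjusted p 1.47e-05). Zbtb46 and Flt3 were not called.

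Of 26 tested genes that are typical of cDC2, 3 rose in KO CD8+ cells (Mgl2, Ccr2 and Clec12a), 16 fell and 7 were not called. The median log2 fold change was -1.32. The shares were 11.5% higher and 61.5% lower, against 7.06% and 8.71% of all genes tested. In bulk libraries fewer cells of a type and less RNA per cell cannot be told apart, and the values of WT CD4+ cells are given beside those of CD8+ cells for scale. Sirpa, the gene of a signal-regulatory protein that marks cDC2, had 17.7, 11.2 and 22.3 CPM in KO, against 64.9, 61.5 and 87 CPM in WT CD8+ libraries (-2.06 ± 0.19, adjusted p 1.09e-06), and averaged 987 CPM in WT CD4+ cells. Csf1r, the receptor for macrophage colony-stimulating factor, had 9.84, 8.99 and 13.4 CPM in KO, against 71.8, 56.7 and 92.3 CPM in WT libraries (-2.77 ± 0.17, adjusted p 2.61e-08), and averaged 379.5 CPM in WT CD4+ cells. Cx3cr1, the fractalkine receptor, had 7.89, 5.65 and 11.2 CPM in KO, against 52.6, 34.6 and 60.5 CPM in WT libraries (-2.57 ± 0.22, adjusted p 5.56e-07), close to the 76.4 CPM of WT CD4+ cells. KO replicate 2 was the lowest and KO replicate 3 the highest of the KO libraries for Sirpa and Cx3cr1. Irf4, a transcription factor of cDC2, had 8.21, 10.1 and 13.8 CPM in KO, against 55.9, 40.4 and 69 CPM in WT libraries (-2.36 ± 0.19, adjusted p 3.05e-07). Itgam, which encodes CD11b, had 1.88 to 4.68 CPM in KO and 3.24 to 5.82 CPM in WT CD8+ libraries, was not called, and averaged 138 CPM in WT CD4+ cells.

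Other genes fell from WT CD8+ levels above those of WT CD4+ cells. Lag3, a checkpoint receptor also known from plasmacytoid dendritic cells, had 32.6, 26.1 and 32.2 CPM in KO, against 124, 102 and 172 CPM in WT libraries (log2 fold change -2.13 ± 0.16, adjusted p 1.94e-07), and its WT CD8+ mean of 133 CPM lay above the 49.8 CPM of WT CD4+ cells. Vcam1, an adhesion molecule, had 6.78, 9.69 and 15.3 CPM in KO, against 54.3, 50.2 and 55 CPM in WT libraries (-2.33 ± 0.19, adjusted p 4.83e-07), and averaged 32.3 CPM in WT CD4+ cells. Ccr1, a chemokine receptor, had 5.67, 5.02 and 9.55 CPM in KO, against 33.5, 17.5 and 25.2 CPM in WT libraries (-1.91 ± 0.33, adjusted p 0.000586), and averaged 4.05 CPM in WT CD4+ cells.

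Genes of the Notch-dependent ESAM-high and of the ESAM-low cDC2 were followed separately. Of 10 ESAM-high cDC2 genes 0 rose and 5 fell in KO CD8+ cells (median log2 fold change -1.63), against medians of -3.76 in CD4+ and -3.24 in CD4-CD8- cells. With the length offset 2 of them fell. Esam, an adhesion molecule, had 1.37, 2.37 and 2.21 CPM in KO, against 9.5, 8.3 and 9.29 CPM in WT CD8+ libraries (-2.19 ± 0.29, adjusted p 5.15e-05), and averaged 75.9 CPM in WT CD4+ cells. Its call was lost on TPM with the smaller pseudocount (adjusted p 0.0545) and with the length offset (adjusted p 0.0531). Of 14 ESAM-low cDC2 genes 5 rose and 6 fell (median -0.70). In CD4+ cells 13 of these 14 rose (18.5% of all genes did), with a median of 2.35, and in CD4-CD8- cells 11 rose (14.6% of all genes did). Lyz2, Lyz1, Ccr2, Mgl2 and Clec12a were higher in KO CD8+ cells, and Csf1r, Cx3cr1, Cd209a, Ms4a6c, Ms4a6b and Clec10a were lower. The Mgl2 call, at 1.19 to 3.72 CPM in KO and 0.429 to 0.62 CPM in WT libraries, was lost without KO replicate 1 (adjusted p 0.0598), on TPM with a pseudocount of 1 (adjusted p 0.193) and on rescaled TPM (adjusted p 0.159). Clec10a, its close copy, was not called without WT replicate 1 or 3 or without KO replicate 2 or 3 (adjusted p up to 0.153), nor in the CD8+ libraries alone, with the length offset or on rescaled TPM (adjusted p 0.0776 to 0.117).

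C-type lectin receptors, which bind sugars on microbes and on other cells, fell more often than they rose. Of 32 tested 4 rose (12.5%) and 12 fell (37.5%), against 7.06% and 8.71% of all genes tested (median log2 fold change -0.52). Clec7a, which encodes the beta-glucan receptor dectin-1, had 11.1, 13.6 and 20.7 CPM in KO, against 129, 76.1 and 108 CPM in WT libraries (-2.78 ± 0.25, adjusted p 1.09e-06). Cd209a, the mouse relative of DC-SIGN, had 17.8, 15.8 and 38.2 CPM in KO, against 106, 71.4 and 104 CPM in WT libraries (-1.97 ± 0.26, adjusted p 6.07e-05). Cd209d had 9.97, 7.32 and 13.4 CPM in KO, against 83.2, 45.2 and 78.1 CPM in WT libraries (-2.74 ± 0.29). Clec4a4, an inhibitory receptor of the DCIR family, had 0.196 to 0.418 CPM in KO, against 3.29 to 4.76 CPM in WT libraries (-3.59 ± 0.31). In all 4 of these called genes every KO library lay below every WT library, as in 14.9% of all genes tested. Some of the 4 are near-identical copies of their neighbours. Cd302 rose (1.21 ± 0.14), as did Clec12a, which had 238 to 316 CPM in KO, against 154 to 197 CPM in WT libraries and was not called on TPM (adjusted p 0.108). Of 13 Fc receptor genes 2 rose and 3 fell (median -0.04). The inhibitory receptor gene Fcgr2b rose, with 84, 110.4 and 105 CPM in KO, against 33.7, 42.7 and 38.1 CPM in WT libraries (1.39 ± 0.15, adjusted p 7.09e-06), and the signalling chain Fcer1g fell (-0.64 ± 0.11).

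Genes of migratory mature dendritic cells, which mark cells that leave for the T cell zone, fell together. Of 34 tested 27 fell (79.4%) and 1 rose (2.94%), against 8.71% and 7.06% of all genes tested (median log2 fold change -1.14). Between 24 and 26 fell when any 1 library was left out. Their summed level was 2674, 2667 and 2574 CPM in KO, against 4876, 4632 and 4483 CPM in WT libraries. In CD4+ cells 10 of the same genes rose and 12 fell (median 0.13; 18.5% of all genes rose and 16.6% fell), and in CD4-CD8- cells 10 rose and 11 fell (median 0.14; 14.6% and 11.4% of all genes). Ccr7, the receptor that guides dendritic cells to the T cell zone, had 165, 138 and 154 CPM in KO, against 845, 655 and 586 CPM in WT libraries (-2.19 ± 0.23, adjusted p 4.34e-06). Mreg had 16.9, 17 and 17 CPM in KO, against 79.8, 63.7 and 73.2 CPM in WT libraries (-2.09 ± 0.17). Tnfrsf4, which encodes OX40, had 4.5, 6.55 and 5.46 CPM in KO, against 26.1, 22 and 23.9 CPM in WT libraries (-2.12 ± 0.18). Il12b, a subunit of interleukin-12, had 24.6, 30.6 and 25.2 CPM in KO, against 82.3, 72.4 and 66.4 CPM in WT libraries (-1.46 ± 0.25). Relb, an NF-kappaB subunit, had 75.2, 82.3 and 58.1 CPM in KO, against 159, 162 and 172 CPM in WT libraries (-1.19 ± 0.14). No KO library reached the lowest WT library for any of these 5 genes, which were picked from called members. Over all genes tested, KO lay below WT in this way in 14.9%. Ccl17 was the member that rose, at 0.779 to 1.7 CPM in KO, against 0.151 to 0.344 CPM in WT libraries.

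**Figure D3:**
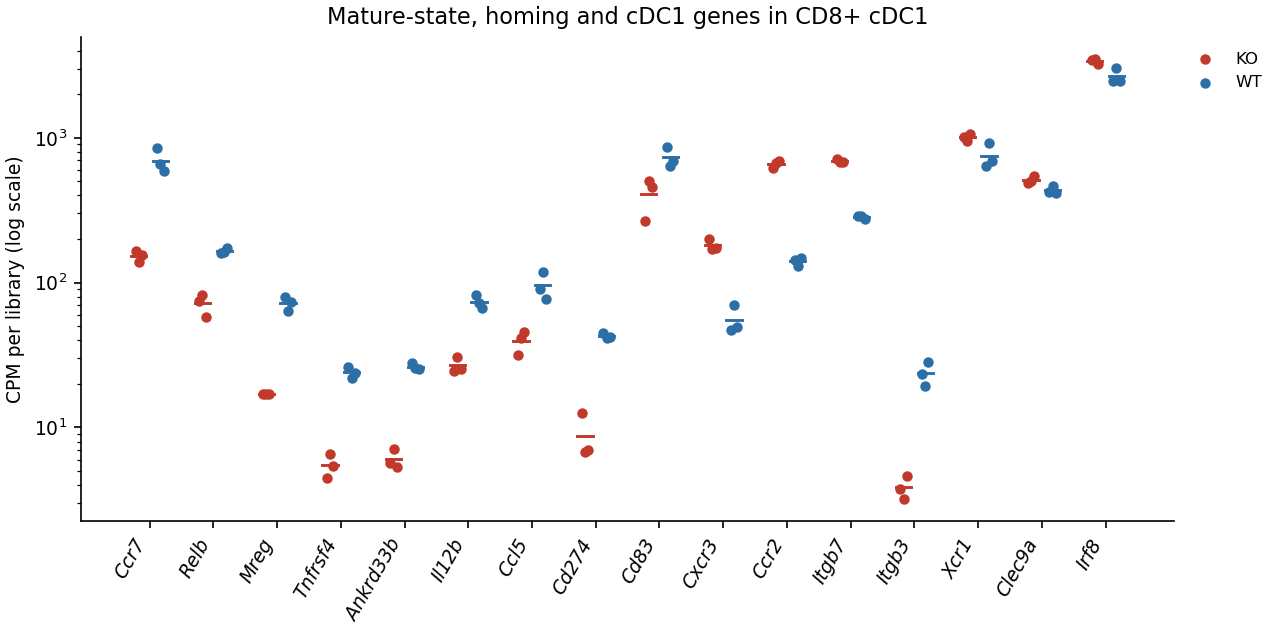
CPM (log scale) of mature-state, homing and cDC1 genes in each CD8+ library, KO left of WT, with a bar at the group mean. Ccr7 sits between 138 and 165 CPM in KO and between 586 and 845 CPM in WT libraries, while Ccr2, Itgb7 and Cxcr3 sit higher in all 3 KO libraries than in any WT library.

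Costimulatory and checkpoint ligands gave 3 rises (14.3%) and 10 falls (47.6%) among 21 tested genes, against 7.06% and 8.71% of all genes. Their median log2 fold change was -0.51, and 6 fell without KO replicate 1. Cd274, which encodes the checkpoint ligand PD-L1, had 12.6, 6.76 and 6.95 CPM in KO, against 45.2, 41.2 and 41.8 CPM in WT libraries (-2.28 ± 0.23, adjusted p 2.78e-06). Lgals9, the gene of galectin-9, rose, with 24.7, 35.9 and 33 CPM in KO, against 11.8, 13.5 and 12.8 CPM in WT libraries (1.29 ± 0.11, adjusted p 8.49e-07). Cd83 had 267, 501 and 456 CPM in KO, against 867, 643 and 693 CPM in WT libraries (-0.85 ± 0.23, adjusted p 0.0194), and the call was lost without WT replicate 1 (adjusted p 0.0887), without KO replicate 1 (adjusted p 0.0857) and with the replicate block in the CD8+ libraries alone (adjusted p 0.0963). Of 26 cytokine genes 5 rose and 5 fell (median -0.35). Without WT replicate 1 or 2, 3 of them rose, and without WT replicate 3, 3 fell. Tnfsf12, which encodes TWEAK, rose (8.87, 8.71 and 7.86 CPM in KO, against 2.07, 1.86 and 2.8 CPM in WT libraries; 1.92 ± 0.17, adjusted p 6.97e-07). Ltb, a lymphotoxin subunit, fell (17.4, 36.3 and 19.5 CPM in KO, against 49.9, 58.5 and 63.8 CPM in WT libraries; -1.24 ± 0.24, adjusted p 0.00152).

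Chemoattractant receptors moved in both directions, with 7 rises (28%) and 8 falls (32%) among 25 tested genes (median log2 fold change -0.45). Of all genes tested 7.06% rose and 8.71% fell. Besides Ccr2 and Cysltr1, Cxcr3, the receptor for interferon-induced chemokines, rose, with 199.6, 171 and 172 CPM in KO, against 47, 70.3 and 49.6 CPM in WT libraries (1.70 ± 0.19, adjusted p 1.04e-05). Ptgdr2, a prostaglandin D2 receptor, had 4.22 to 4.89 CPM in KO, against 0.831 to 1.5 CPM in WT libraries (1.97 ± 0.45). The falls took in Ccr7, Cx3cr1 and Ccr1, described above, and Ccr6, which had at most 0.0697 CPM in KO, against 0.453 to 0.758 CPM in WT libraries and was not called on TPM with a pseudocount of 1 (adjusted p 0.324) or on rescaled TPM (adjusted p 0.403). Of 19 chemokine genes 3 rose and 2 fell (median -0.21). Xcl1, whose product binds XCR1, fell (1.83, 0.488 and 1.23 CPM in KO, against 6.4, 8.73 and 4.31 CPM in WT libraries; -2.44 ± 0.57, adjusted p 0.00657), as did Ccl5 (-1.28 ± 0.20). Among 20 integrin genes 3 rose and 3 fell (median 0.08). Itgb7, the beta chain shared by CD103 and the gut-homing integrin, had 708, 679.8 and 679.6 CPM in KO, against 288, 288 and 273 CPM in WT libraries (1.28 ± 0.10, adjusted p 3.36e-07). Its partner Itga4 had 225, 294 and 369 CPM in KO, against 563, 557 and 669 CPM in WT libraries (-1.01 ± 0.16, adjusted p 0.000253). Itgb3 fell further, with 3.78, 3.21 and 4.61 CPM in KO, against 23.4, 19.3 and 28.5 CPM in WT libraries (-2.61 ± 0.19, adjusted p 1.49e-07).

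Of 14 MHC class II genes 6 rose and 3 fell (median log2 fold change 0.23), and on TPM 2 were called higher. H2-DMa and H2-DMb1, the pair that loads peptides, had 1110 to 1207 and 821 to 861 CPM in KO, against 784 to 832 and 560.2 to 635 CPM in WT libraries. The log2 fold changes were 0.54 ± 0.08 and 0.51 ± 0.09. Lgmn, a lysosomal protease that trims antigens, fell (18.3, 18.5 and 23.6 CPM in KO, against 72.4, 60.2 and 73.2 CPM in WT libraries; -1.77 ± 0.14, adjusted p 2.68e-07). Of 25 genes of MHC class I loading and cross-presentation 0 rose and 1 fell (median 0.10). That gene was Cybb, an NADPH oxidase subunit, with 56.1, 40 and 83.9 CPM in KO, against 232, 165 and 299 CPM in WT libraries (-1.95 ± 0.22, adjusted p 1.06e-05). Among 36 cathepsin and lysosomal hydrolase genes 5 rose and 13 fell (median -0.25). Ctsd, cathepsin D, had 22, 20.6 and 27.5 CPM in KO, against 46.3, 42.2 and 42.6 CPM in WT libraries (-0.90 ± 0.14), and Npc2, a cholesterol carrier, had 1087, 1104 and 1053 CPM in KO, against 575, 655 and 570.2 CPM in WT libraries (0.85 ± 0.07). The rises in that list numbered 2 without WT replicate 1 or KO replicate 2 and 3 without WT replicate 3, and the falls numbered 7 with the length offset.

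Toll-like receptors and their adaptors gave 4 rises and 5 falls among 22 tested genes (median log2 fold change 0.15), with 1 rise on TPM. Tlr5, the flagellin receptor, fell to 0.848, 0.697 and 1.23 CPM in KO, against 5.85, 7.94 and 8.84 CPM in WT libraries (-3.01 ± 0.24, adjusted p 3.44e-07). Tlr4, the receptor for lipopolysaccharide, rose, with 14.8, 13.5 and 15.2 CPM in KO, against 5.3, 7.09 and 5.36 CPM in WT libraries (1.29 ± 0.24, adjusted p 0.00124). Of 47 interferon-stimulated genes 10 rose and 1 fell (median 0.28), and on TPM 3 rose. Cmpk2 had 11.3, 11.4 and 9.74 CPM in KO, against 3.86, 3.36 and 4 CPM in WT libraries (1.53 ± 0.12, adjusted p 3.36e-07), Ifi44 rose by more (1.99 ± 0.35) and Slfn5 by less (0.95 ± 0.11). Of 30 immediate early genes, which respond within minutes to handling and signals, 0 rose and 6 fell (median -0.21), or 3 without KO replicate 1. Rgs1, a brake on chemokine receptors, had 14.3, 27.3 and 21.1 CPM in KO, against 76, 44.9 and 52.6 CPM in WT libraries (-1.47 ± 0.21, adjusted p 0.000139).

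Transcription factors of the dendritic cell lineages fell more often than they rose. Of 43 tested 3 rose (6.98%) and 17 fell (39.5%), against 7.06% and 8.71% of all genes tested (median log2 fold change -0.50). On TPM after rescaling, an analysis added after the data were seen, 11 fell. Besides Irf4, Hic1 and Relb, Bcl11a, which plasmacytoid cells need, fell, with 36.9, 43.6 and 46.1 CPM in KO, against 94.5, 84.9 and 121 CPM in WT libraries (-1.25 ± 0.11, adjusted p 1.09e-06). Zeb2, a repressor needed by cDC2 and plasmacytoid cells, had 3.72, 3.97 and 8.44 CPM in KO, against 19.7, 13.5 and 25.9 CPM in WT libraries (-1.87 ± 0.27, adjusted p 0.000128). Spib, a factor of plasmacytoid cells, had 21.6, 13.2 and 29.8 CPM in KO, against 76.6, 61.6 and 89.7 CPM in WT libraries (-1.82 ± 0.20, adjusted p 8.75e-06). In all 3 of these called genes the highest KO library lay below the lowest WT library, as in 14.9% of all genes tested.

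Ribosomal protein genes rose widely by small amounts. Of 79 tested 58 rose (73.4%, against 7.06% of all genes) and 0 fell, with a median log2 fold change of 0.39. On TPM 21 rose. The rise was shared with cDC2. In CD4+ cells 52 rose and 0 fell (median 0.30), where 18.5% of all genes rose. In CD4-CD8- cells 70 rose and 0 fell (median 0.50), where 14.6% of all genes rose. Rpl22 had 991, 973 and 778 CPM in KO, against 617, 615 and 599 CPM in WT libraries (0.58 ± 0.09, adjusted p 0.000166). Of 60 cell cycle genes 13 rose (21.7%, against 7.06% of all genes) and 0 fell in CD8+ cells (median 0.39). In CD4+ cells 0 of them rose and 55 fell, where 16.6% of all genes fell. In CD4-CD8- cells 0 of them rose and 41 fell, where 11.4% of all genes fell. The rises in CD8+ cells numbered 1, 2 and 6 without WT replicate 1, 2 and 3, and 3 without KO replicate 1 or 3. Kif11, a mitotic motor, had 30.8, 23.1 and 31.8 CPM in KO, against 16, 16.5 and 19.5 CPM in WT libraries (0.72 ± 0.20, adjusted p 0.0211). The Kif11 call was lost without WT replicate 1 or 2 or KO replicate 1 or 3 (adjusted p 0.0685 to 0.0887), on TPM (adjusted p 0.201 and 0.196) and on rescaled TPM (adjusted p 0.0504).

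Of 74 nuclear genes of oxidative phosphorylation 4 rose (5.41%, near the 7.06% of all genes) and 0 fell (median log2 fold change 0.05). The 13 mitochondrially encoded genes had a median of 0.15. Of 27 glycolysis genes 3 rose and 6 fell (median -0.05). Pfkfb3, which raises glycolytic flux, had 124, 118 and 127 CPM in KO, against 269.6, 256 and 252 CPM in WT libraries (-1.08 ± 0.08, adjusted p 2.81e-07). Of 15 targets of the sterol sensor LXR 0 rose and 5 fell (median -0.20). Apoe, a lipid carrier, had 11.5, 20.1 and 15 CPM in KO, against 49.7, 52.2 and 93.2 CPM in WT libraries (-2.07 ± 0.33, adjusted p 0.00032). Of 25 genes of lipid uptake and storage 5 rose and 5 fell (median -0.09), and Plin2, a coat protein of lipid droplets, rose, with 225, 229 and 228 CPM in KO, against 144, 168 and 138 CPM in WT libraries (0.60 ± 0.08). Cholesterol synthesis and uptake had 2 rises (8.33%, near the 7.06% of all genes) and 0 falls among 24 genes (median -0.02). The unfolded protein response had 0 rises and 4 falls among 30 (median -0.01). Some of these counts rest on single libraries. The rises in oxidative phosphorylation numbered 10 without KO replicate 3 and 0 or 1 without any other library. The falls in the unfolded protein response numbered 1 without WT replicate 1 or KO replicate 1 and 2 without KO replicate 3, and the rises in lipid genes numbered 3 without WT replicate 3.

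ADAM10's relatives, partners and substrates were looked at as a group. Of 17 tested ADAM proteases and inhibitors 2 rose and 6 fell (median log2 fold change -0.16), Adam10 included. Adam17, which shares many substrates with ADAM10, had 81.3, 97.3 and 104 CPM in KO, against 107, 104 and 103 CPM in WT libraries and was not called (-0.15 ± 0.08, adjusted p 0.247). Adam19 fell (180.0, 227 and 252 CPM in KO, against 384, 382 and 426 CPM in WT libraries; -0.85 ± 0.13, adjusted p 0.0002), and Timp2, a metalloprotease inhibitor, fell (-1.94 ± 0.29). Of 4 tested TspanC8 tetraspanins, which carry ADAM10 to the cell surface, 1 rose and 2 fell. Of 39 genes of reported ADAM10 substrates 5 rose and 14 fell (median -0.45), and 9 fell on TPM. App, the amyloid precursor protein gene, rose, with 157, 155 and 152 CPM in KO, against 82.4, 94.8 and 80.2 CPM in WT libraries (0.85 ± 0.12, adjusted p 8.18e-05). Lrp1, an endocytic receptor, had 3.78, 2.79 and 7.92 CPM in KO, against 27.5, 14 and 24.4 CPM in WT libraries (-2.17 ± 0.30, adjusted p 9.48e-05). Cdh2 had 0 counts in all KO libraries and at most 0.302 CPM in WT libraries. These are transcript levels and say nothing of protein at the surface.

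**Figure D4:**
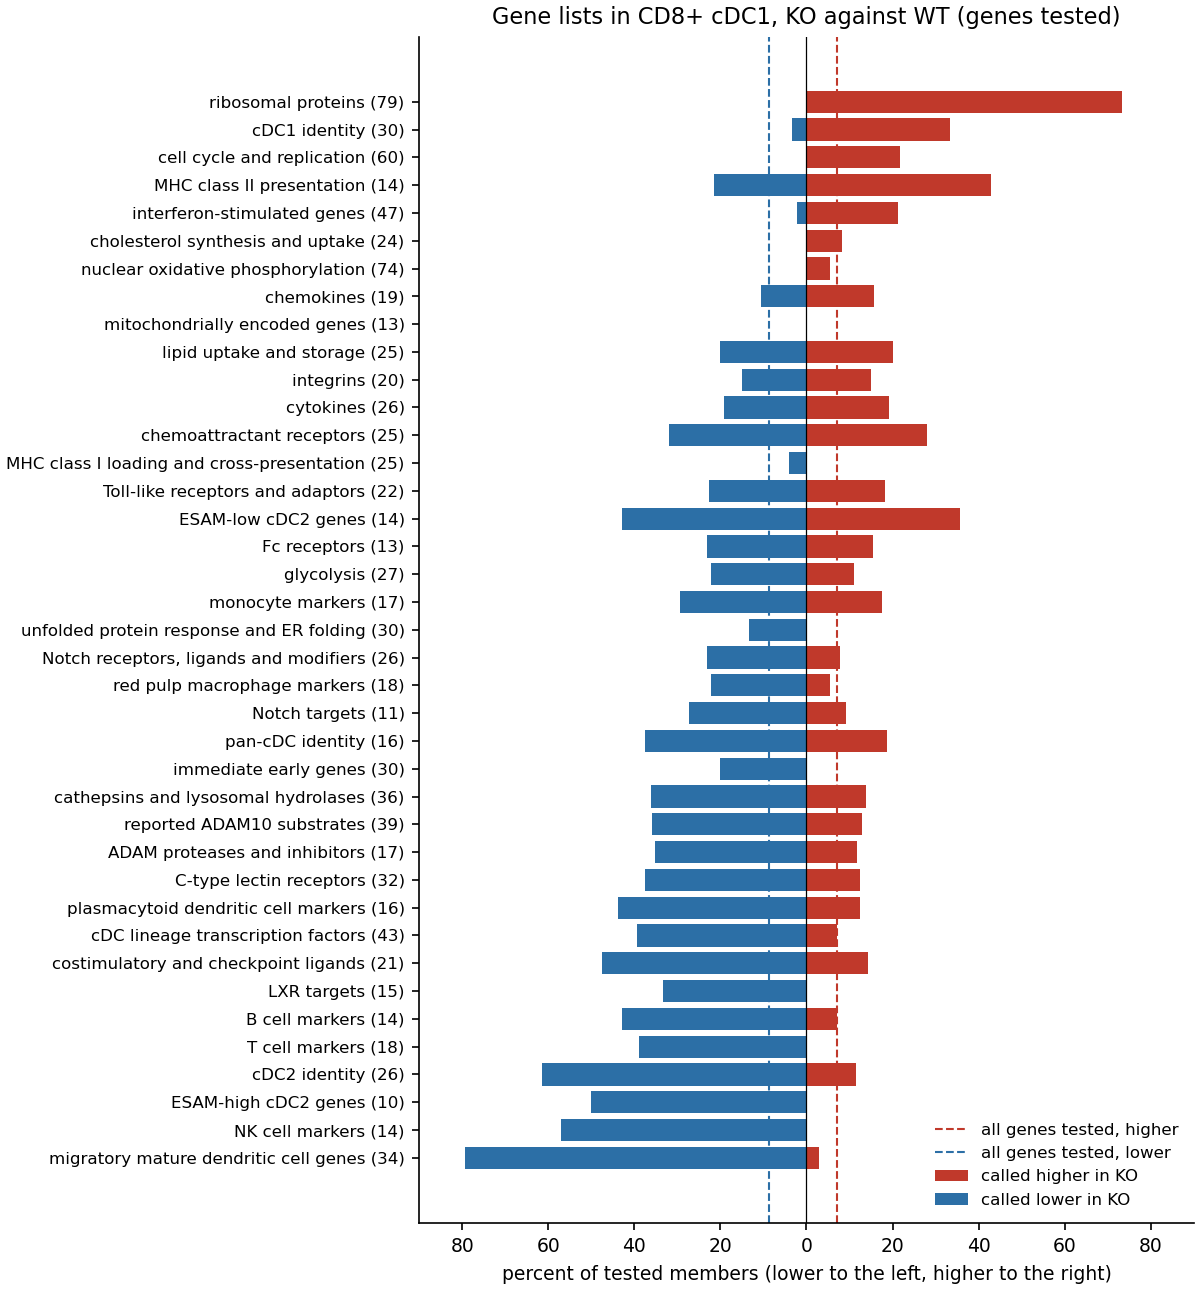
Share of each gene list's tested members that were called higher (right) or lower (left) in KO against WT CD8+ cells, for lists with at least 10 tested genes, whose number stands in brackets; dashed lines mark the shares over all genes. Migratory mature dendritic cell genes (27 of 34 lower), cDC2 genes (16 of 26 lower) and ribosomal protein genes (58 of 79 higher) can be set against the shares over all genes (7.06% higher, 8.71% lower).

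Markers of other cell types that a sort could hold changed too. T cell markers summed to 20.7 to 43.7 CPM in KO, against 83.9 to 113 CPM in WT libraries, with 7 of 18 lower and 0 higher. NK cell markers summed to 113 to 155 CPM in KO, against 149 to 230 CPM in WT libraries, with 8 of 14 lower. The defining T cell gene Cd3e had 0.587, 0.139 and 1.49 CPM in KO, against 1.79, 4.72 and 0.982 CPM in WT libraries, and Gzma had 1.7, 0.0697 and 1.56 CPM in KO, against 16.3, 33.9 and 0.604 CPM in WT libraries, so both overlapped. These calls rest on few libraries: 4 T cell markers were lower without WT replicate 1 or 2 or KO replicate 1 or 2, and NK markers numbered 3, 2, 3, 1 and 4 without WT replicate 1, WT replicate 2, KO replicate 1, KO replicate 2 and KO replicate 3. Some members called lower did not overlap. The NK cell marker Il2rb had 3.52, 0.767 and 4.35 CPM in KO, against 12.7, 16.5 and 6.88 CPM in WT libraries. Eomes had 0.391, 0.209 and 0.974 CPM in KO, against 3.1, 2.15 and 1.51 CPM in WT libraries. Over all genes tested, KO lay below WT in this way in 14.9%. Tcf7, also a factor of T cells, was lower in all KO libraries (2.74, 2.16 and 3.77 CPM in KO, against 15.5, 20.8 and 18.4 CPM in WT libraries; log2 fold change -2.65 ± 0.21, adjusted p 2.68e-07).

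B cell markers summed to 389 to 422 CPM in KO, against 349 to 365 CPM in WT libraries, with 1 of 14 higher and 6 lower. Plasmacytoid markers gave 2 rises and 7 falls among 16, and Siglech had 23.7, 14.4 and 29 CPM in KO, against 49.7, 32.9 and 54.3 CPM in WT libraries. Monocyte markers (3 higher and 5 lower of 17), red pulp macrophage markers (1 and 4 of 18), stromal and endothelial markers (1 and 3 of 6) and plasma cell markers (0 and 1 of 8) had calls in the numbers given. Red pulp macrophage markers summed to 305 to 418 CPM in KO, against 401 to 432 CPM in WT libraries. Vcan, of monocytes, Retnlg and Lcn2, of neutrophils, Gp1bb, of platelets, Cpa3, Cma1 and Ms4a2, of mast cells, and Lum, of stroma, were at 0 in all 6 libraries. Erythroid markers summed to 157 to 309 CPM in KO, against 68.1 to 84.4 CPM in WT libraries, with 4 of 7 higher. Between 0 and 1 erythroid markers were called without KO replicate 1 or 3 or any WT library. The part of these cells in the falls of cDC2, plasmacytoid and lymphoid genes was not tested.

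The KO effect in CD8+ cells was set against that in cDC2, where more genes were called: 4695 in CD4+ (35.1%) and 3473 in CD4-CD8- cells (26%). The effect itself differed from that in CD4+ cells for 2963 genes (22.2%; 9.54% above and 12.6% below) and from that in CD4-CD8- cells for 1767 genes (13.2%; 4.96% above and 8.26% below). Of the 944 genes that rose in CD8+ cells, 484 also rose and 120 fell in CD4+ cells, and 504 also rose and 62 fell in CD4-CD8- cells. Of the 1165 that fell, 423 also fell and 254 rose in CD4+ cells, and 395 also fell and 188 rose in CD4-CD8- cells. Over all genes tested, 18.5% rose and 16.6% fell in CD4+ cells, and 14.6% rose and 11.4% fell in CD4-CD8- cells. The difference was called for all of the 254 and of the 188. As these genes were picked by opposite calls in the same fit, this adds no support. In 316 genes the fall was called in all 3 populations, Hes1, Dtx1, Gp2 and Esam among them. In 157 genes the fall in CD8+ cells stood against rises in both cDC2 populations.

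Cx3cr1 fell in CD8+ cells and rose in both cDC2 populations. Its level averaged 8.26 ± 2.81 CPM in KO and 49.3 ± 13.3 CPM in WT CD8+ cells (SD, n = 3 each), but 409 CPM in KO and 76.4 CPM in WT CD4+ cells and 384 CPM in KO and 152 CPM in WT CD4-CD8- cells. The KO effect on Cx3cr1 was lower in CD8+ than in CD4+ cells by 4.99 on the log2 scale (adjusted p 1.72e-08). Cd209a averaged 23.9 ± 12.4 CPM in KO and 93.8 ± 19.4 CPM in WT CD8+ cells, but 1122 CPM in KO and 229.9 CPM in WT CD4+ cells (difference -4.25, adjusted p 4.71e-07). Csf1r, Lag3, Spib, Vcam1 and Cybb followed the same course, with differences of -3.76, -3.68, -3.12, -3.52 and -3.18 from CD4+ cells. Ccr2 and Lyz2 rose in all 3 populations. S100a10 rose in CD8+ cells by 2.52, against 0.28 in CD4+ and 0.25 in CD4-CD8- cells, where it was not called, and both differences were called (2.24, adjusted p 1.96e-05, and 2.27, adjusted p 3.66e-05).

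**Figure D5:**
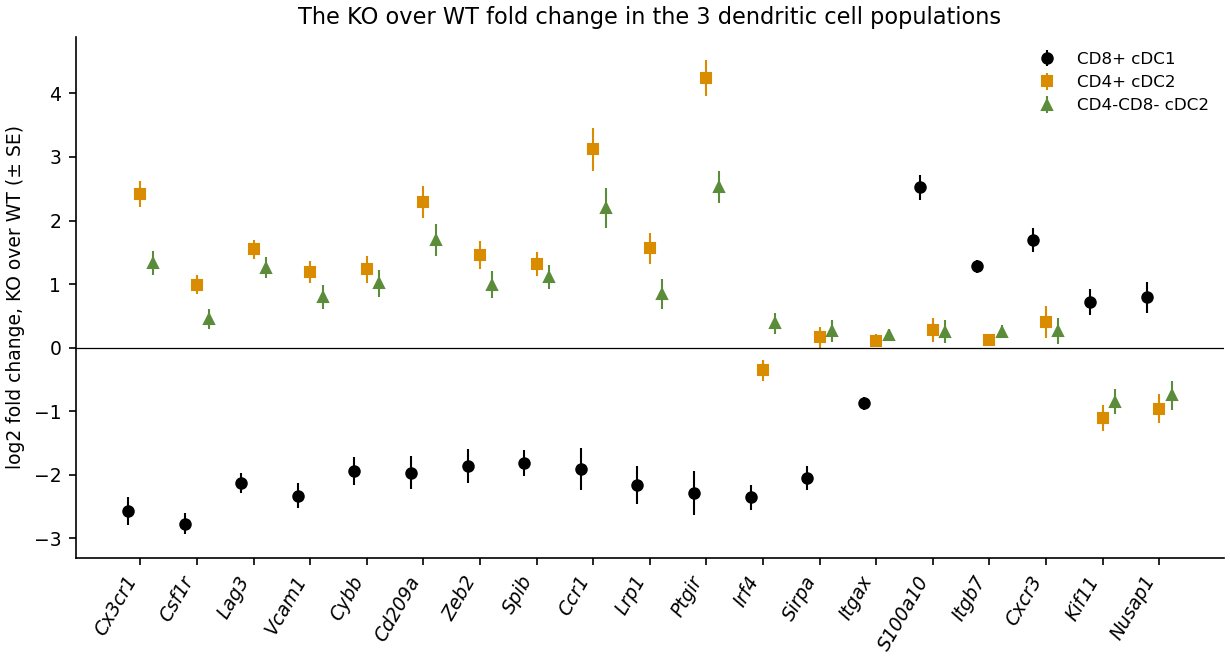
log2 fold change, KO over WT, with SE, for selected genes in CD8+, CD4+ and CD4-CD8- cells. Cx3cr1, Cd209a and Csf1r lie below 0 in CD8+ cells and above it in both cDC2 populations, whereas S100a10 lies far above 0 in CD8+ cells (2.52) and near it in CD4+ (0.28) and CD4-CD8- cells (0.25).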

How the data were processed

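RNA of sorted spleen dendritic cells was sequenced as poly(A)-selected single-end libraries, per the labels' protocols. The authors deposited estimated counts per transcript and TPM values. Salmon 0.14.1, FastQC 0.11.8 and the build GRCm38 are listed in the submitters' processing notes. Estimated counts were summed per gene name and rounded. Of 152 transcripts without a gene name 37 were filled from the annotation and 115 left out (at most 0.16% of counts). Genes were filtered with filterByExpr, scaled by TMM and tested in all 18 libraries with edgeR 4.0.16's quasi-likelihood test (R 4.3.3), giving 12 residual degrees of freedom. SE were derived from F. CPM use TMM-scaled library sizes. TPM were tested as log2(TPM + 1) and log2(TPM + 0.1) with limma 3.58.1, which understates changes of low genes. In simulated data of 13056 genes, 92% of 100 genes changed by 1 and 100% of 100 changed by 2 on the log2 scale were recovered, with 4% false calls. Replicates differed beyond sampling noise, with a chi-square per gene of 10.5 to 31.1, so none was merged.

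The members and lists were chosen with earlier results of these data known. Named genes were a core list, the 15 largest rises and falls that reached 5 CPM without overlap, up to 4 per list and direction, and 5 per direction for each difference between populations. Alternatives were RLE scaling, DESeq2 1.42.0, other filters, the CD8+ libraries alone, a replicate block, 1 library left out, TPM, a transcript length offset and rescaled TPM. Counting did not use a stated strand, so antisense and overlapping genes are uncertain, as are near-identical copies (Lyz1 and Lyz2, Apol7c and Gm8221, Mgl2 and Clec10a, the Cd209 family).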

Additional observations from a re-analysis of the deposited data

Results flagged for a closer look

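Each result here was taken up because the KO effect in CD8+ cells differed from that in a cDC2 population, by the edgeR test of the difference itself with Benjamini-Hochberg adjustment over 13369 genes. In brackets stand the log2 fold change, KO over WT, in CD8+ cells and then that in the cDC2 population. The genes are those with the largest differences under the naming rule and a set chosen with earlier results of these data known, whose directions are no independent support.

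The KO effect in CD8+ cells lay above that in CD4+ cells by a log2 difference of 4.29 for Dhrs9 (2.15 against -2.14), 5.34 for Cdh17 (-0.41 against -5.74), 4.25 for Gpr82 (1.81 against -2.44), 3.95 for Gpr161 (-1.67 against -5.62) and 2.24 for S100a10 (2.52 against 0.28). In the same direction the difference was 1.83 for Kif11 (0.72 against -1.11). The KO effect in CD8+ cells lay below that in CD4+ cells by a log2 difference of -7.29 for Cxcl13 (-0.92 against 6.38), -7.19 for Fn1 (0.46 against 7.64), -4.99 for Cx3cr1 (-2.57 against 2.42), -3.76 for Csf1r (-2.77 against 0.99) and -2.22 for Sirpa (-2.06 against 0.16). In the same direction the difference was -2.00 for Irf4 (-2.36 against -0.36), -4.25 for Cd209a (-1.97 against 2.29), -3.68 for Lag3 (-2.13 against 1.55), -3.12 for Spib (-1.82 against 1.31) and -3.52 for Vcam1 (-2.33 against 1.19). In the same direction the difference was -0.98 for Itgax (-0.88 against 0.11) and -3.18 for Cybb (-1.95 against 1.23).

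The KO effect in CD8+ cells lay above that in CD4-CD8- cells by a log2 difference of 5.41 for Cdh17 (-0.41 against -5.81), 6.96 for Hist1h2ap (2.40 against -4.56), 4.80 for Podnl1 (1.60 against -3.21), 4.34 for Frmd5 (-0.45 against -4.79) and 3.57 for Btbd11 (1.10 against -2.47). In the same direction the difference was 2.27 for S100a10 (2.52 against 0.25) and 1.57 for Kif11 (0.72 against -0.85). The KO effect in CD8+ cells lay below that in CD4-CD8- cells by a log2 difference of -4.90 for Cyp7b1 (-3.85 against 1.05), -6.29 for Hr (-1.91 against 4.38), -5.04 for Cldn10 (-2.59 against 2.45), -4.82 for Ptgir (-2.29 against 2.53) and -3.91 for Cx3cr1 (-2.57 against 1.33). In the same direction the difference was -3.22 for Csf1r (-2.77 against 0.45), -2.32 for Sirpa (-2.06 against 0.26), -2.74 for Irf4 (-2.36 against 0.38), -3.66 for Cd209a (-1.97 against 1.69) and -3.39 for Lag3 (-2.13 against 1.26). In the same direction the difference was -2.93 for Spib (-1.82 against 1.11), -3.12 for Vcam1 (-2.33 against 0.79), -1.07 for Itgax (-0.88 against 0.20) and -2.96 for Cybb (-1.95 against 1.01). The least certain were Hist1h2ap (adjusted p 0.0422) and Podnl1 (adjusted p 0.044), and neither fold change in CD8+ cells can be relied on. Hist1h2ap had 90.7, 91.4 and 0 CPM in KO CD8+ libraries, against 0, 8.8 and 26.1 CPM in WT CD8+ libraries. Podnl1 had at most 0.209 CPM in KO and 0.0756 CPM in WT CD8+ libraries. Cdh17, Gpr161, Cxcl13, Fn1, Frmd5 and Btbd11 were not called in CD8+ cells either, on counts or in any alternative that tested them. With 1 library left out, the log2 fold change in CD8+ cells ranged from -2.42 to -0.39 for Cxcl13 and from -0.22 to 0.80 for Fn1.

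In CD8+ cells the falls of Hr and Cldn10 were not called on TPM, on rescaled TPM or with the length offset (adjusted p up to 0.863 for Hr and 0.441 for Cldn10), and that of Ptgir was not called on rescaled TPM (adjusted p 0.0508). The edgeR tests of these differences rest on 3 libraries in each group, and no cause of a difference was tested.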

How the results depend on the processing

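Of the 222 named genes called in CD8+ cells, 174 stayed called without any 1 library in turn and 121 under every alternative, and 4 reversed under at least 1 (Tlr7, Sel1l, Laptm5 and Vwf). The number called in CD8+ cells was 2109, and 1535 to 2065 with 1 library left out; it was 1121 with the replicate block in the CD8+ libraries alone, 1402 with the length offset and 1323 on rescaled TPM, an alternative chosen after seeing the data. DESeq2 called 2280, of which 2037 were shared. Higher genes numbered 944, and 626 to 897 with 1 library left out, 494 with that block, 264 and 265 on TPM, 578 with the offset and 626 on rescaled TPM. Lower genes numbered 627 with that block and 697 on rescaled TPM. On TPM 1034 and 1155 of the 2109 calls were shared. In CD4+ cells 3101 were called with the offset and 3124 on rescaled TPM, and in CD4-CD8- cells 2178 with the offset. The difference from CD4+ cells was called for 1632 and 1636 genes on TPM, 1807 with the offset and 1925 on rescaled TPM, and that from CD4-CD8- cells for 1168 and 972 on TPM and 904 with the offset.

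Replicate numbers did not pair the genotypes: same-numbered KO and WT CD8+ libraries had correlations of their deviations of -0.0382, -0.0177 and -0.0292. With the replicate block over all 18 libraries 2343 genes were called (1078 higher and 1265 lower), 2056 of them among the 2109. Same-numbered KO libraries deviated together where KO CD8+ was in the pair (0.135 to 0.247), and by 0.0547 to 0.173 between KO CD4+ and KO CD4-CD8-. Same-numbered WT libraries of different populations did so too (0.034 to 0.168), against -0.147 to 0.0719 for differently numbered ones. The main tests of a difference between populations held no block for this. A block within genotype, chosen after seeing the data, called 3544 and 2273 differences from CD4+ and CD4-CD8- cells.

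Directions that turned belonged mostly to uncalled genes, as log2 fold changes. With 1 library left out, the ranges were -0.86 to 0.38 for Nrarp, -1.98 to 3.19 for Heyl, -0.10 to 0.08 for Notch1, -0.07 to 0.26 for Batf3, -0.97 to 0.40 for Itgae and -0.22 to 0.80 for Fn1. Notch1 was 0.01 in the CD8+ libraries alone, 0.00228 with the block, 0.01 with the block in CD8+ libraries alone, 2.48 and 2.99 on TPM, 3.14 with the offset and 2.67 on rescaled TPM. On TPM with pseudocounts 1 and 0.1 the values were -0.12 and -0.12 for Batf3, -0.36 and -0.43 for Itgae, -0.11 and -0.12 for Wdfy4, -0.09 and -0.09 for Zbtb46, -0.01 and -0.01 for Flt3, 0.05 and 0.24 for Dll1, -0.06 and -0.06 for Laptm5, -0.08 and -0.09 for Vwf and -0.07 and -0.28 for Fn1. Itgae was -0.30 and -0.27 with the block, in all and in the CD8+ libraries. With the offset Dll1 was 0.48, Sel1l 0.03 and Fn1 -0.16, and on rescaled TPM Dll1 was 0.07, Itgae -0.18, Tlr7 0.04, Sel1l 0.03 and Fn1 -0.04. The cause of these changes was not tested.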
